A study of Mus musculus with 4 samples.

Results

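The aryl hydrocarbon receptor *Ahr*, its DNA-binding partner *Arnt* and 4 genes known as its transcriptional targets, *Ahrr*, *Tiparp*, *Cyp1a1* and *Cyp1b1*, were followed in colonic organoids (colonoids) with and without sodium butyrate. The members were taken by gene symbol, which found all 6 among the 36144 gene names of the count table. RNA was measured by poly-A RNA-seq in 4 libraries, 1 for each of Untreated and Butyrate at 48 h (day 2) and at 72 h (day 3). Colonoids are epithelial cultures grown from colonic crypts in Matrigel, and the labels give a single source, a WT male mouse aged 24 weeks, with cultures at passage 3. The methods instead describe Hes1-GFP reporter mice, with a single mouse as the source of the sequenced cultures, and the genotype did not enter any comparison. Butyrate was given at 2 mM. All 4 cultures shared a crypt medium with EGF, Noggin, R-spondin, the GSK3 inhibitor CHIR99021 and the ROCK inhibitor Y-27632, so none was free of growth factors and Wnt stimulation.

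The aryl hydrocarbon receptor is a transcription factor of the bHLH-PAS family that waits in the cytosol in a complex with the chaperone Hsp90. When it binds a ligand, such as a plant indole, a tryptophan product of gut bacteria or a pollutant, it moves to the nucleus, pairs with Arnt and binds DNA at sites with the core letters GCGTG. Its best known targets encode the enzyme Cyp1a1, which also breaks down ligands of the receptor, and the repressors Ahrr and Tiparp, which limit its activity. In the gut it is known for sensing diet and microbial products, and butyrate is a microbial fermentation product that inhibits histone deacetylases.

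Total counts lay between 20790225 and 24207840 per library, and 13979 genes had more than 10 counts in at least 2 libraries and were used for all gene-wide shares. All 6 members passed this filter. Counts were divided by DESeq2 size factors, between 0.926 and 1.10, and are called normalised counts. With 1 library per condition no difference can be set against replicate error, no test was run, and every comparison is between these libraries. The 95% intervals given are exact intervals of the counts and cover counting error only. A label check found the 8 genes of colonic epithelium, among them *Epcam*, *Cdh1* and *Cdx2*, at 3758 counts or more in every library. Of 7 stromal genes, *Col3a1* and *Lum* were at 0 throughout and the whole list summed to between 74.5 and 121 normalised counts. Of 6 immune genes, *Ptprc*, which encodes the pan-leukocyte marker CD45, had 5 to 15 counts. The lysosomal gene *Cd68*, used as a macrophage marker, had 128 counts in Untreated and 1309 in Butyrate at 48 h, and 172 and 420 at 72 h. The other myeloid genes differed from it, with *Itgam* at 48, 36, 41 and 43 counts in the same order and *Csf1r* at 1, 2, 0 and 16. The immune list, carried by *Cd68*, summed to 187 normalised counts in Untreated and 1229 in Butyrate at 48 h, then to 233 and 525. The 3 endothelial genes summed to between 28.1 and 53.3 normalised counts. Of these, *Pecam1* had 20 counts in Untreated and 37 in Butyrate at 48 h, then 45 and 23, while *Cdh5* had 0 or 1 and *Kdr* 1 to 8. The part of these lists in the results below was not tested. In bulk RNA, fewer cells of a type cannot be told apart from less RNA per cell.

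In these libraries *Cyp1a1* and *Cyp1b1* stood apart from the other members. *Cyp1a1* was 2.85-fold higher with butyrate at 48 h and not higher at 72 h, whereas *Cyp1b1* was 1.70-fold higher at 48 h and 1.49-fold higher at 72 h. *Ahr* itself was lower with butyrate at both times, and *Arnt* differed little. The feedback repressors *Ahrr* and *Tiparp* were not above Untreated at 48 h.

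**Figure D1:**
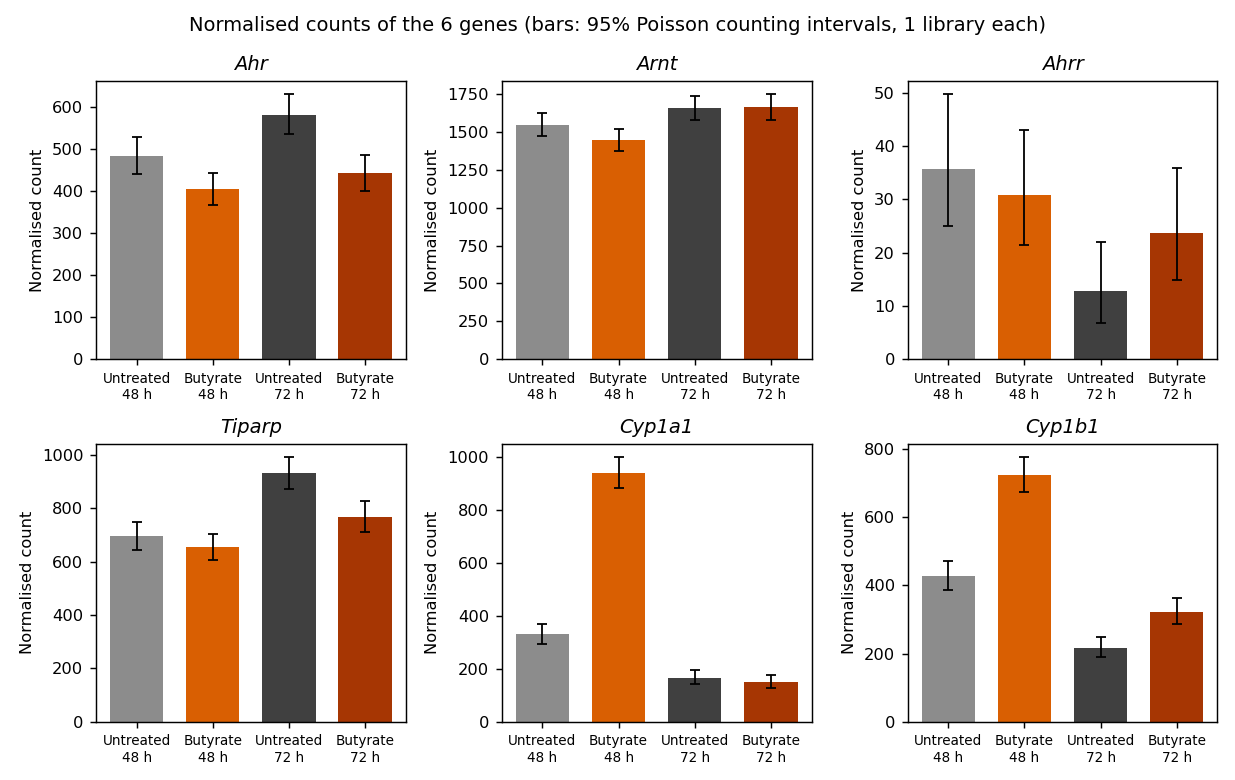
Normalised counts (y axis, from 0) of the 6 genes in the 4 libraries, with 95% Poisson counting intervals as error bars. The Butyrate library at 48 h stands highest for *Cyp1a1* (942) and *Cyp1b1* (725), and lowest for *Ahr*, *Arnt* and *Tiparp*.

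*Ahr*, the ligand-binding receptor, lies on chromosome 12 from 35497974 to 35535038 in GRCm38, on the minus strand, where a lincRNA gene on the opposite strand overlaps it. It had 473 counts in Untreated and 446 in Butyrate at 48 h, and 590 and 410 at 72 h, or 484, 405, 583 and 443 normalised counts in that order. Both Butyrate libraries were lower than both Untreated libraries. On the log2 scale, the ratio of butyrate over untreated was −0.26 (−0.45 to −0.07) at 48 h, and at 72 h it was −0.40 (−0.58 to −0.21). From 48 h to 72 h *Ahr* was higher by 0.27 (0.09 to 0.45) in the Untreated libraries, a difference of the same order. Decreases of this size were common in these libraries, since 25.6% of tested genes had a lower ratio than *Ahr* at 48 h and 13.8% at 72 h.

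*Arnt*, which encodes the shared partner of Ahr and of the hypoxia-inducible factors, lies on chromosome 3 from 95434388 to 95497240 on the plus strand and overlaps the processed pseudogene *Gm42672*, which had 3 to 7 counts. Its normalised counts were 1550 in Untreated and 1446 in Butyrate at 48 h, and 1661 and 1665 at 72 h. The log2 ratios were −0.10 (−0.20 to 0.00) at 48 h and 0.00 (−0.10 to 0.11) at 72 h, so that a difference with butyrate was not detectable at this depth. It was the steadiest of the 6 genes, with the highest library 1.15-fold above the lowest.

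*Tiparp* encodes a mono-ADP-ribosyltransferase that modifies Ahr and lowers its activity. It lies on chromosome 3 from 65528410 to 65555518 on the plus strand and overlaps the pseudogene *4931440P22Rik* on the opposite strand, which had 25 to 39 counts. *Tiparp* had 695 normalised counts in Untreated and 653 in Butyrate at 48 h, and 930 and 767 at 72 h. The log2 ratio was −0.09 (−0.24 to 0.06) at 48 h, and at 72 h it was −0.28 (−0.42 to −0.14). Over time it differed the other way, with 0.42 (0.28 to 0.56) in the Untreated libraries and 0.23 (0.08 to 0.38) in the Butyrate libraries.

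*Ahrr*, the repressor that competes with Ahr for Arnt, was near the limit of these libraries. It lies on chromosome 13 from 74211118 to 74292331 on the minus strand. It had 35 counts in Untreated and 34 in Butyrate at 48 h, and 13 and 22 at 72 h. At 48 h the log2 ratio was −0.21 (−0.94 to 0.51) and at 72 h it was 0.89 (−0.16 to 2.00), and neither interval left out a ratio of 1. The Untreated libraries differed more clearly over time, with a log2 ratio of −1.48 (−2.52 to −0.53) for 72 h over 48 h. *Ahrr* was lowest in the Untreated library at 72 h.

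*Cyp1a1* encodes the cytochrome P450 that is the standard readout of Ahr activity. It lies on chromosome 9 from 57687928 to 57703824 on the plus strand. It had 323 counts in Untreated and 1038 in Butyrate at 48 h, and 169 and 139 at 72 h, or 330, 942, 167 and 150 normalised counts. The Butyrate library at 48 h was thus far above the other 3, and the Butyrate library at 72 h was the lowest of all. The log2 ratio was 1.51 (1.33 to 1.70) at 48 h, which placed *Cyp1a1* at 519 from the top among 13979 genes, and −0.15 (−0.49 to 0.18) at 72 h. The 72 h ratio minus the 48 h ratio was −1.66 on the log2 scale (−2.03 to −1.29, an approximate counting interval). Over time *Cyp1a1* was lower at 72 h than at 48 h in both conditions, with log2 ratios of −0.98 (−1.26 to −0.71) in Untreated and −2.65 (−2.92 to −2.39) in Butyrate. The time comparisons use the same libraries as the butyrate comparisons and are not independent of them.

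*Cyp1b1* encodes a related P450 that is also expressed in stromal cells. It lies on chromosome 17 from 79701537 to 79715061 on the minus strand. It had 418 counts in Untreated and 799 in Butyrate at 48 h, and 220 and 299 at 72 h, or 427, 725, 217 and 323 normalised counts. Butyrate was above Untreated at each time, although the Untreated library at 48 h was above the Butyrate library at 72 h. The log2 ratio was 0.76 (0.59 to 0.94) at 48 h, and at 72 h it was 0.57 (0.32 to 0.83), with 89.8% and 90.0% of tested genes below it. From 48 h to 72 h the log2 ratio was −0.98 (−1.22 to −0.74) in Untreated and −1.17 (−1.36 to −0.97) in Butyrate. The difference between its 48 h and 72 h butyrate ratios was −0.19 (−0.49 to 0.11), so that a change in the response was not detectable at this depth. The 7 stromal genes summed to 100.2 normalised counts in Untreated and 83.5 in Butyrate at 48 h, then to 121 and 74.5 at 72 h. Most of this was *Pdgfrb*, with 80, 68, 105 and 55 counts in that order, while *Pdgfra* had 9, 11, 11 and 13 and *Col1a1* 5, 12, 6 and 0. Their part in the values of *Cyp1b1* was not tested.

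*Cyp1a2*, the neighbour and closest relative of *Cyp1a1*, had 0 counts in both Untreated libraries, 4 in Butyrate at 48 h and 6 in Butyrate at 72 h. The counting interval of its ratio of butyrate over untreated ran from 0.586 upward at 48 h and from 1.29 upward at 72 h, with no upper limit, and the 48 h interval included a ratio of 1. How reads that fit both genes were divided is uncertain.

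**Figure D2:**
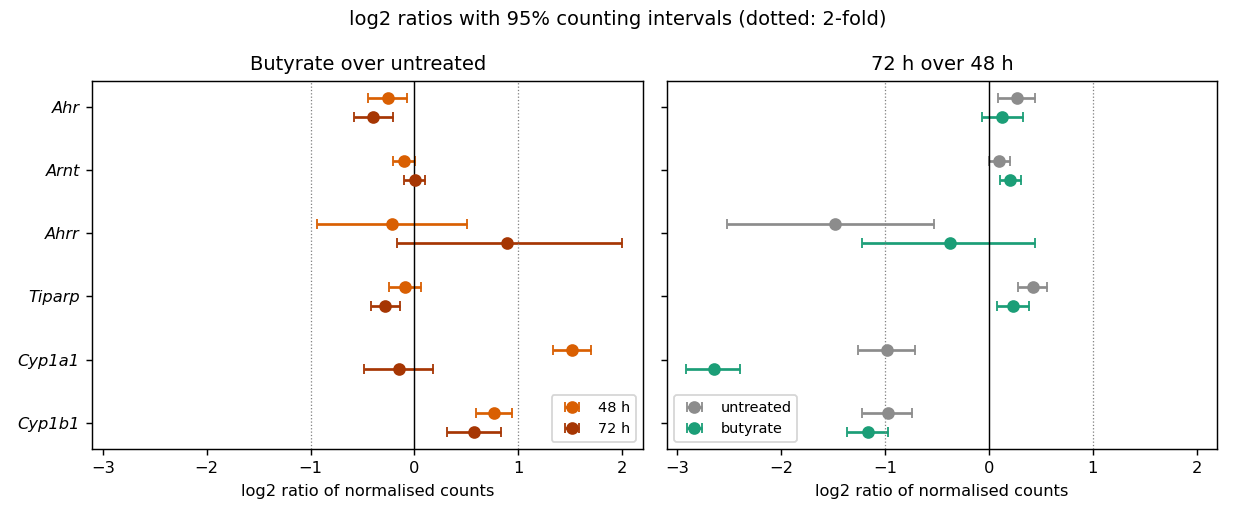
log2 ratios of normalised counts (x axis) of the 6 genes, for butyrate over untreated at 48 h and 72 h (left) and for 72 h over 48 h in Untreated and Butyrate (right), with 95% counting intervals and dotted lines at 2-fold. *Cyp1a1* at 48 h is the only butyrate point with a whole interval beyond a dotted line, and *Cyp1a1* and *Cyp1b1* lie left of 0 in both time comparisons.

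Counted together, 1 of the 6 genes, *Cyp1a1*, was at least 2-fold higher with butyrate at 48 h and 0 were at least 2-fold lower. Of all tested genes, 10.5% differed by as much at 48 h, 7.12% higher and 3.36% lower. At 72 h 0 of the 6 differed at least 2-fold, against 8.77% of tested genes, 4.74% higher and 4.03% lower. Counting intervals left out a ratio of 1 for 3 of the 6 genes at 48 h (*Cyp1a1*, *Cyp1b1* and *Ahr*) and for 3 at 72 h (*Cyp1b1*, *Ahr* and *Tiparp*), but this held for 60.7% and 52.3% of all tested genes, so the shares among the members were no higher than the background. From 48 h to 72 h in the Untreated libraries, *Ahrr* alone of the 6 differed at least 2-fold, against 4.83% of tested genes, with *Cyp1a1* and *Cyp1b1* just inside that limit. This count depended on the scaling: with total counts *Cyp1a1* (−1.06) and *Cyp1b1* (−1.05) passed it too, which made 3 of the 6, and with total counts without mitochondrial genes *Cyp1a1* (−1.01) did, which made 2. In the Butyrate libraries *Cyp1a1* and *Cyp1b1* did, against 9.14%. The median log2 ratio of the 6 was −0.10 at 48 h and −0.07 at 72 h, beside −0.01 and 0.00 for all tested genes.

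Levels can be compared between genes only per length, and normalised counts per kb of annotated exon were used for this. By the mean over the libraries the order was *Arnt* (197), *Tiparp* (175), *Cyp1a1* (142), *Ahr* (77.6), *Cyp1b1* (72.5) and *Ahrr* (2.73). *Arnt*, between 181 and 208 per kb, and *Tiparp*, between 150 and 213, overlapped over the libraries, as did *Ahr*, between 65.7 and 94.5, and *Cyp1b1*, between 37.2 and 124. *Cyp1a1*, between 53.9 and 338, crossed the ranges of all members except *Ahrr*. It was the highest of the 6 in Butyrate at 48 h, the third highest in Untreated at 48 h and the fifth in Butyrate at 72 h. *Arnt* was between 2.19 and 2.90 times as high as *Ahr* per kb, and *Ahr* between 20.1 and 69.5 times as high as *Ahrr*. The ratio of *Cyp1a1* to *Ahr* per kb was 1.51 in Untreated and 5.15 in Butyrate at 48 h, and 0.633 and 0.750 at 72 h.

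**Figure D3:**
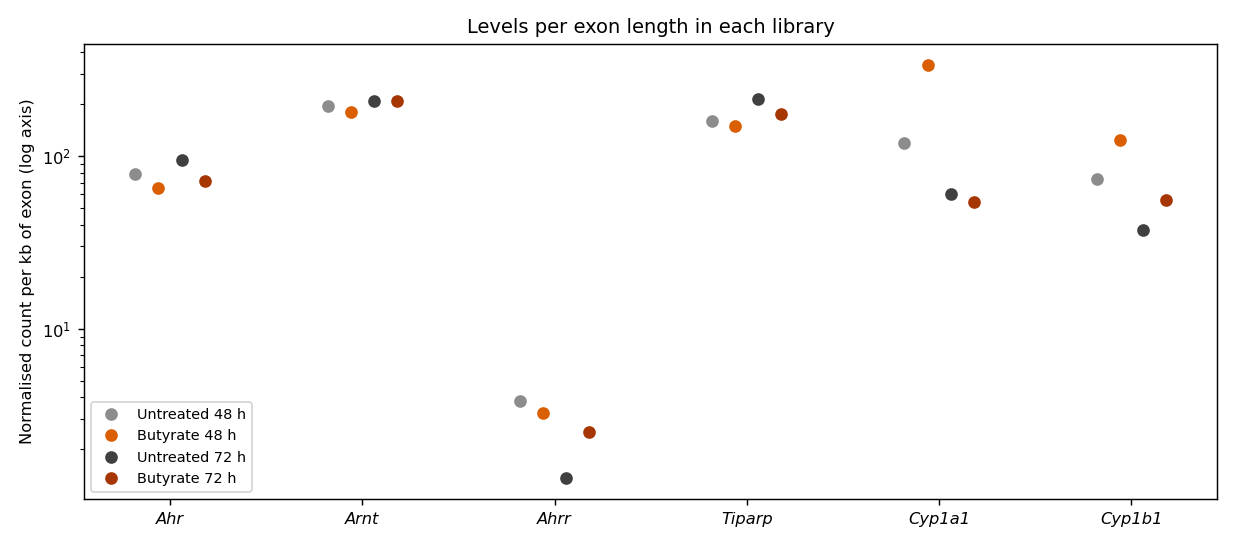
Normalised count per kb of exon (log axis) of the 6 genes, 1 point per library. The *Arnt* points lie together between 181 and 208, the *Cyp1a1* points spread from 53.9 to 338, and *Ahrr* lies far below the others.

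The promoter windows of *Cyp1a1*, *Cyp1b1* and *Ahrr* are shown because the first 2 genes were highest with butyrate at 48 h and the third was not. They run from 250 bases before to 50 bases after the annotated start, 5′ to 3′ on the gene's own strand, from RefSeq with the GRCm38.p6 build, and 5 of the 6 genes, all but *Ahr*, were matched by symbol. Capitals mark the core GCGTG, or CACGC where the core is on the opposite strand. The *Cyp1a1* window is chr9:57697363-57697662 (plus strand, at a start inside the annotated span of the gene), that of *Cyp1b1* chr17:79715012-79715311 (minus strand) and that of *Ahrr* chr13:74292282-74292581 (minus strand).
Cyp1a1: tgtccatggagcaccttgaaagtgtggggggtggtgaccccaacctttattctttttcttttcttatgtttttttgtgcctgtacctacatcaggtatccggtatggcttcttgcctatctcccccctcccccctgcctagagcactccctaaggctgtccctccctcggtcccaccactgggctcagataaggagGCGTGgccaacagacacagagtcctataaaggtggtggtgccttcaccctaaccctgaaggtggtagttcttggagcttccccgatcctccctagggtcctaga
Cyp1b1: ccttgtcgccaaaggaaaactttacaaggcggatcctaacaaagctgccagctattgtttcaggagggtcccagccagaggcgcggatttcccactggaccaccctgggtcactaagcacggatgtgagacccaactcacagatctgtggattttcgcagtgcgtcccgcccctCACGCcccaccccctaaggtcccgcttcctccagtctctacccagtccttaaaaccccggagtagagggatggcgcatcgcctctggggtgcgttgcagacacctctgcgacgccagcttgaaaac
Ahrr: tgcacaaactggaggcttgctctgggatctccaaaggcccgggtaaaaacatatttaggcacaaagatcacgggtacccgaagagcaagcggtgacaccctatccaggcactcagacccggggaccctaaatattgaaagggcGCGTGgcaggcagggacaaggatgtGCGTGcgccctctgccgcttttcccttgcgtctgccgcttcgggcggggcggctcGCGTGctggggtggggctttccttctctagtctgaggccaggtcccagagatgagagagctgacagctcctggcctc

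*Cyp1a1* held the core once, 54 bases before the start on the gene's strand, and *Cyp1b1* once, 72 to 76 bases before the start on the opposite strand. *Ahrr* held it 3 times, the nearest 27 bases before the start, and that copy was part of the longer motif TNGCGTG, which includes the core. *Arnt* and *Tiparp* also held 1 core each and no longer motif. On both strands, 32.4% of all 32851 windows held GCGTG and 5.07% held TNGCGTG, so a core in the window was common and did not set the genes higher with butyrate apart. Sites outside these 300 bases were not searched.

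All 4 genes listed as chaperones of Ahr were above Untreated at 48 h, with a median log2 ratio of 0.21, and at 72 h, with a median of 0.13. At either time 0 of 4 differed 2-fold, beside 10.5% of all tested genes at 48 h and 8.77% at 72 h. Of all 13979 tested genes, 6811 were higher and 7162 lower at 48 h, compared with 7026 higher and 6947 lower at 72 h. *Hsp90aa1* was higher by 0.28 and 0.25 on the log2 scale, *Hsp90ab1* by 0.08 and 0.20, and *Ptges3*, the p23 co-chaperone, by 0.20 and 0.07.

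Of 11 other genes known as Ahr targets, 9 passed the count filter. At 48 h 6 were higher and 3 lower, with 1 at least 2-fold higher and a median log2 ratio of 0.29. For 4 of the 9 genes the interval lay above 0 and for 3 below it. Among the 13979 tested genes, 4102 intervals lay above 0 and 4377 below. Of all tested genes at that time, 6811 were higher and 7.12% at least 2-fold higher. At 72 h 1 was higher and 8 lower, with 2 at least 2-fold lower and a median of −0.63, whereas 6947 of all 13979 tested genes were lower at that time and 4.03% at least 2-fold lower. *Ugt1a6a*, a glucuronidation enzyme, had 2239 counts in Untreated and 5887 in Butyrate at 48 h, and 2771 and 1944 at 72 h. Its log2 ratios were 1.22 (1.15 to 1.29) and −0.38 (−0.47 to −0.30), high in the same library as *Cyp1a1*. *Ugt1a6a* shares exons with the other genes of the Ugt1a cluster, and how the pseudoalignment divided their reads is uncertain. *Nqo1*, a quinone reductase that also answers to Nrf2, had log2 ratios of 0.29 (0.16 to 0.43) and −0.99 (−1.14 to −0.84), and the P450 gene *Cyp2s1* of 0.43 (0.33 to 0.53) and −0.98 (−1.11 to −0.86). *Scin*, which encodes an actin-severing protein, was higher by 0.44 (0.23 to 0.66) at 48 h and 2.89-fold lower at 72 h, with 518 counts in Untreated and 164 in Butyrate. *Aldh3a1* had 7 to 22 counts, and its ratios of 0.70 (−0.38 to 1.85) and −1.15 (−2.66 to 0.19) had wide intervals. *Nfe2l2*, which encodes Nrf2, had −0.11 and −0.24, and *Slc7a5*, an amino acid transporter, 0.04 and 0.46. *Gsta1*, a glutathione transferase, had −0.18 and −0.63, and *Xdh*, xanthine dehydrogenase, −0.36 and −0.27. By the sign of the ratio alone, 5 of the 9 genes had opposite directions at 48 h and 72 h. The other 4 (*Gsta1*, *Xdh*, *Nfe2l2* and *Slc7a5*) had the same sign at both times, as did *Cyp1b1*, *Ahr* and *Tiparp*. The 48 h intervals of *Slc7a5* (−0.06 to 0.14) and *Tiparp* (−0.24 to 0.06) included a log2 ratio of 0. Opposite directions were seen for 38.2% of all tested genes.

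Some enzymes of tryptophan metabolism make ligands of Ahr. Of 10 listed genes of tryptophan and indole metabolism, 5 passed the filter. *Ido1*, which opens the kynurenine route, had 18 to 36 counts and butyrate ratios whose intervals included 1 at both times, and *Tdo2* had at most 1 count. *Afmid*, the next enzyme of the route, had log2 ratios of 0.54 (0.23 to 0.85) and 0.24 (−0.06 to 0.54). *Tph1*, which makes serotonin in enterochromaffin cells, was 2.35-fold higher with butyrate at 48 h and 2.09-fold lower at 72 h. It alone of the 5 differed 2-fold. Of all tested genes, 7.12% were at least 2-fold higher at 48 h and 4.03% at least 2-fold lower at 72 h. *Ddc*, a decarboxylase with 611 to 940 counts, had −0.10 and −0.49. The list median was 0.31 and then 0.05, and the latter turned to −0.49 when only genes with a mean of at least 50 were kept.

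Of 13 other bHLH-PAS genes, 8 passed the filter and 0 differed 2-fold at either time, beside 10.5% and 8.77% of all tested genes, with medians of −0.10 and 0.16. With no filter 1 did at 48 h and that median turned to 0.14. *Hif1a*, which encodes another partner of Arnt, had log2 ratios of 0.34 and 0.15, *Clock* of −0.37 and −0.18, and *Npas2* of −0.07 and 0.21. *Npas1*, which did not pass the filter, had 23 counts in Butyrate at 48 h, 1 in Untreated at 48 h and 0 in both 72 h libraries. *Arntl2* was higher at both times, with 0.50 (0.28 to 0.73) and 0.91 (0.67 to 1.15), *Arnt2* had 0.60 and 0.17, and *Hif3a* −0.59 and 0.48. *Epas1*, which encodes a further hypoxia-inducible factor, had −0.35 and −0.50. The PAS-domain coactivators *Ncoa1*, *Ncoa2* and *Ncoa3* had −0.41, −0.56 and 0.20 at 48 h and −0.42, 0.11 and −0.09 at 72 h. Of 9 hypoxia targets of the Arnt and Hif pair, 8 were higher with butyrate at 48 h and 9 at 72 h, with medians of 0.15 and 0.43, whereas 6811 and 7026 of the 13979 tested genes were higher. For 72 h over 48 h the median of these 9 was −0.38 in Untreated, with 7 lower, and −0.06 in Butyrate, with 5 lower. Of all tested genes, 6898 and 7158 were lower over time. *Adm* alone of the 9 was at least 2-fold higher with butyrate at 72 h (1.22, 0.84 to 1.60), beside 4.74% of all tested genes. Among the hypoxia targets *Vegfa* had 0.04 and 0.42, *Slc2a1*, the glucose transporter, 0.15 and 0.04, and *Ndrg1* 0.59 and 0.43. Of 7 mono-ADP-ribosyltransferase genes related to *Tiparp*, 0 differed 2-fold at either time, beside 10.5% and 8.77% of all tested genes. Their medians were −0.09 and 0.01. *Parp9* had −0.23 and 0.03, *Parp12* 0.05 and −0.38, and *Parp14* −0.42 and −0.07.

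**Figure D4:**
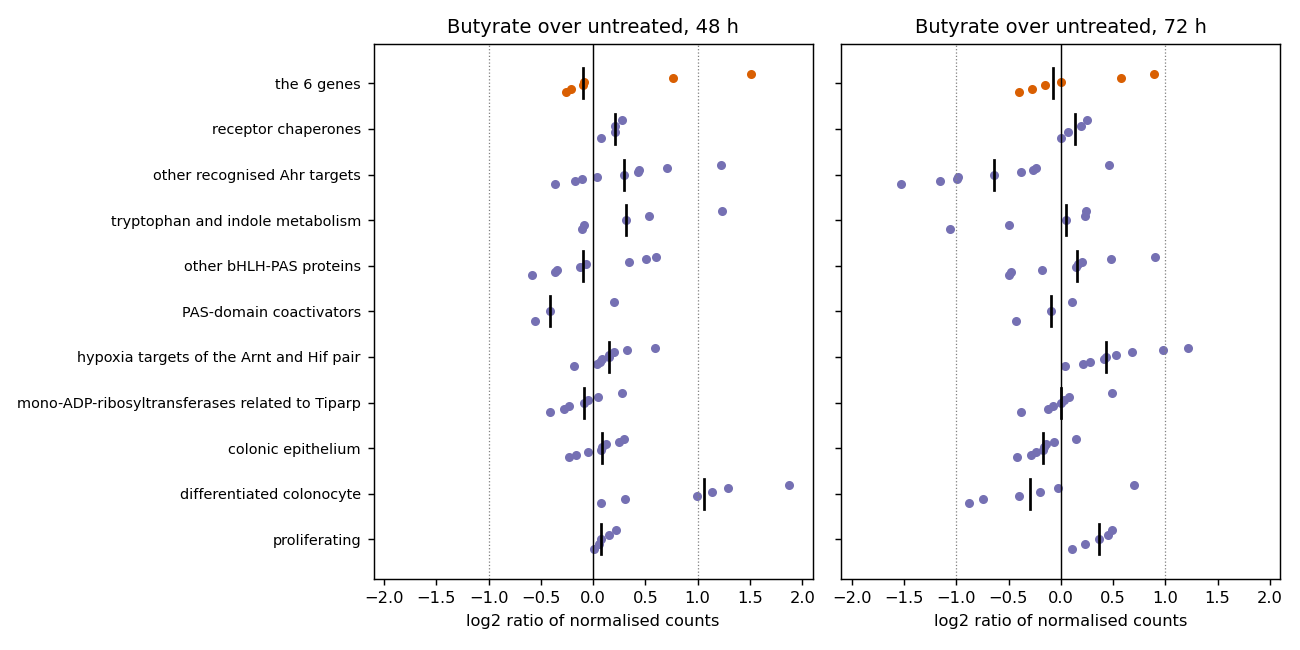
log2 ratio of butyrate over untreated (x axis) at 48 h (left) and 72 h (right) for each gene that passed the filter, by list (rows), with the list median as a black bar and dotted lines at 2-fold. The median of the other Ahr targets is 0.29 in the left panel and −0.63 in the right panel, while the differentiated colonocyte genes are centred on 1.07 and −0.30.

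Markers of differentiated colonocytes were higher with butyrate at 48 h, as *Cyp1a1* was. All 6 were above Untreated, with 3 at least 2-fold higher and a median log2 ratio of 1.07, beside 6811 of 13979 tested genes higher and 7.12% at least 2-fold higher. The least different was the water channel gene *Aqp8*, at 0.08 (−0.10 to 0.26). At 72 h 5 were lower and 1 higher, with a median of −0.30, beside 6947 of all tested genes lower. *Car1* and *Car4*, which encode carbonic anhydrases, had log2 ratios of 1.14 and 1.88 at 48 h and of −0.88 and −0.39 at 72 h, and *Slc26a3*, the chloride exchanger, of 1.29 and −0.20. *Krt20* had 0.30 and −0.74. The summed level of the list was 27090 normalised counts in Untreated and 57580 in Butyrate at 48 h, and 42930 and 25760 at 72 h. Most of this sum was *Car1*, with 20390, 44920, 34630 and 18850 normalised counts in that order. *Ceacam20*, a cell adhesion gene, was higher at both times, with 0.99 and 0.70. For 72 h over 48 h, the median of the 6 markers was 0.47 in Untreated, with 5 higher and *Ceacam20* at −0.46, beside −0.98 for both *Cyp1a1* and *Cyp1b1*. In Butyrate that median was −0.96, with 5 lower and 1 higher, beside −2.65 for *Cyp1a1* and −1.17 for *Cyp1b1*. The part of colonocyte content in the values of *Cyp1a1* was not tested. The median of the 5 proliferation genes was 0.07 and then 0.36, with *Mki67* at 0.06 and 0.45, *Top2a* at 0.22 and 0.48, and *Pcna* at 0.07 and 0.36.

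**Figure D5:**
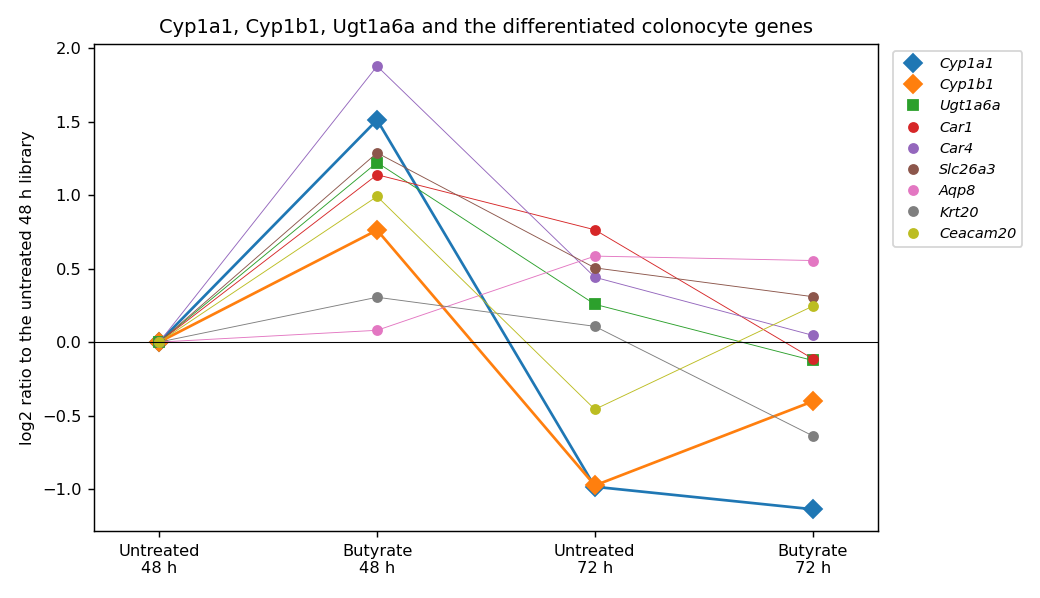
log2 ratio to the Untreated library at 48 h (y axis) of *Cyp1a1*, *Cyp1b1* (diamonds), *Ugt1a6a* (square) and 6 differentiated colonocyte genes (circles) in the 4 libraries, with lines that only join the points of a gene. All 9 lie above 0 in Butyrate at 48 h, and in Untreated at 72 h *Cyp1a1* (−0.98) and *Cyp1b1* (−0.98) lie below 0 while the colonocyte genes lie between −0.46 (*Ceacam20*) and 0.76 (*Car1*).

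The genes nearest in pattern to each member were found by the Euclidean distance of log2 normalised counts (pseudocount of 1), centred on each gene's mean, over the 4 libraries, among 11635 genes with a mean of at least 50 normalised counts. *Ahrr* was below this level. Nearest to *Cyp1a1* were the apolipoprotein gene *Apoc2* at a distance of 0.574, the growth regulator *Myc* at 0.667 and *Ly6g6c* at 0.678. *Myc* had 2646 counts in Untreated and 7657 in Butyrate at 48 h, and 1482 and 1890 at 72 h. *Cyp1b1* had closer neighbours, the tight junction gene *Cldn14* at 0.0600, *Gm35315* at 0.162 and *Zfp493* at 0.236. *Cldn14* had 117 counts in Untreated and 225 in Butyrate at 48 h, followed by 59 and 80 at 72 h. Near *Ahr* were *Snx7* at 0.0279 and *Vasp* at 0.0322. *Tiparp* was nearest to *Myh14* at 0.00901, then to *Tbc1d2* and *Nedd4l*. *Arnt* was nearest to *Eif1*, at 0.00716, then to *Wwp1* and *Erf*. With 4 libraries, many genes lie close to a flat pattern such as that of *Arnt*, and no likeness was tested.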

How the data were processed

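Poly-A RNA-seq libraries from mouse colonoids were analysed, 1 each for Untreated and Butyrate (2 mM) at 48 h and 72 h. The authors deposited counts per gene, without normalisation or filter. Per the study's methods and the submitters' processing notes, abundances came from a kallisto (0.44.0) pipeline (GRCm38.p6) and were summed to genes with tximport, so the counts are rounded estimates that depend on how reads shared between similar transcripts were divided. Whether strand was used is not given in the sources used here.

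The study's own filter was applied to these counts, a minimum above 10 in 2 libraries or more, which left 13979 of 36144 names. Names altered to dates (26) or listed more than once (2) were never named. Size factors came from DESeq2 1.42.0 and TMM factors from edgeR 4.0.16 (R 4.3.3); other steps used Python 3.11.15, scipy 1.17.1, numpy 2.4.6, matplotlib 3.10.9 and pandas 2.3.3. Ratios were taken without a pseudocount, with a floor of 3 counts for a library at 0. Intervals (95%) were exact Clopper-Pearson intervals of the pair of counts and exact Poisson intervals of single counts. Because no molecular identifiers were used, reads may repeat a molecule, and all such limits hold counting error alone. The calculation was tested on simulated data. Positions and exon lengths came from GENCODE M21 (GRCm38).

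Members and lists were chosen with earlier results of these data known. Named genes were the 6 members, list genes that passed the filter and differed 2-fold with butyrate at either time, the 3 with the highest mean in each list, and the 3 nearest in pattern to each member, of which 1 is not reported here. *Cyp1a2*, *Cyp2s1*, *Nqo1*, *Gsta1*, *Xdh*, *Arntl2*, *Arnt2*, *Hif3a*, *Ankrd37*, *Ceacam20*, *Aqp8*, *Csf1r*, *Krt18*, *Krt19*, *Lgals4*, *Ido1*, *Tdo2*, *Npas1*, *Epas1*, *Gm42672*, *Cdx2*, *Col3a1*, *Lum* and *4931440P22Rik* were named after their values were seen. Alternatives were other scalings, pseudocounts of 1 and 5, other filters and thinning to the smallest total.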

Additional observations from a re-analysis of the deposited data

Results flagged for a closer look

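Several genes of the lists had butyrate ratios of opposite direction at the earlier and the later time, and a ratio of 1 lay outside both counting intervals. None of the 6 members was among them, since the 72 h interval of *Cyp1a1* included a ratio of 1. The difference between the 2 times was not tested, because each condition had 1 library. The values are log2 ratios at 72 h minus those at 48 h. Among the genes around Ahr it was −1.60 for *Ugt1a6a*, −1.97 for *Scin*, −1.42 for *Cyp2s1*, −1.28 for *Nqo1*, −2.29 for *Tph1*, 1.06 for *Hif3a*, 0.66 for *Ncoa2* and 0.46 for *Ankrd37*. Among the epithelial markers it was −0.31 for *Cdh1*, whose 72 h ratio of −0.07 moved to −0.015 with total count scaling, −0.26 for *Krt8*, 0.32 for *Krt18*, −0.31 for *Krt19*, −0.29 for *Cdx2* and −0.72 for *Lgals4*. Among the colonocyte markers it was −2.02 for *Car1*, −2.27 for *Car4*, −1.49 for *Slc26a3* and −1.05 for *Krt20*. Opposite signs, without regard to the intervals, were seen for 38.2% of the 13979 tested genes.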

How the results depend on the processing

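No paired analysis was run, because each condition had 1 library at each time, and for the same reason none could be left out. A fit with time as a block would take the 48 h and 72 h libraries as replicates of a treatment and was not run. For the 6 members, 24 ratios were recomputed under 6 alternatives, and all 144 values stayed within their counting intervals, although the number of members at least 2-fold different over time in Untreated was 1, and 3 with total count scaling. The *Cyp1a1* ratio at 48 h lay between 1.49 and 1.52, that of *Cyp1b1* between 0.75 and 0.78 at 48 h and between 0.52 and 0.62 at 72 h, and that of *Ahr* between −0.40 and −0.34 at 72 h. *Ahrr* at 72 h varied most with butyrate, between 0.69 and 0.94. Total count scaling raised the median of all tested genes at 72 h from 0.00 to 0.06.

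The counts over all genes depended on the filter. With a mean of at least 50, 461 genes were at least 2-fold higher and 185 lower with butyrate at 48 h, compared with 275 higher and 191 lower at 72 h, while 194 differed over time in Untreated and 495 in Butyrate. With no filter these were 1788, 940, 1408, 1084, 1701 and 2680. A pseudocount of 5 gave 396 over time in Untreated. The main counts were 996, 470, 663, 563, 675 and 1277. Among the lists, no filter gave 2 other Ahr targets at least 2-fold higher at 48 h and 1 at 72 h, 2 genes of tryptophan metabolism at least 2-fold higher at 48 h and 2 lower at 72 h, and 1 bHLH-PAS gene higher at 48 h, whose list median turned to 0.14. A mean of at least 50 left 1 other Ahr target at least 2-fold lower at 72 h, as did a pseudocount of 5, moved that list's median to −0.51 and turned the tryptophan median at 72 h to −0.49; this filter leaves fewer genes. Total count scaling gave 2 hypoxia targets at least 2-fold higher at 72 h and medians of 0.19 for the chaperones and −0.12 for the epithelial genes. For 9 of 504 recomputed values of other named genes, the value left its interval, all 9 at 72 h with total count scaling. With a mean of at least 200, 1 of the 3 genes nearest to *Cyp1a1* and 0 of those nearest to *Cyp1b1* were kept.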
